A study of Arabidopsis thaliana with 6 samples.

Results

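Basic leucine zipper (bZIP) genes are described here in Arabidopsis thaliana seedlings in which the transcription factor PLT2 was activated. A list of 57 bZIP loci was matched to the array by locus, and 26 of them had a probe set assigned to that gene alone. Each of the 26 had exactly 1 such probe set. They were analysed within a table of 17504 probe sets for 17216 genes or groups of genes. The other 31 loci, which include all listed members of groups C, D and G and HY5 of group H, were not analysed here.

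The 6 arrays were hybridised with total RNA from whole seedlings of 35S::PLT2-GR. This transgene uses the 35S promoter, active in most tissues, to express PLT2 fused to the hormone-binding part of the glucocorticoid receptor. PLT2 is an AP2-domain factor of the PLETHORA family, and the receptor part keeps the fusion out of the nucleus until dexamethasone is given. Seedlings 4 days old were moved to flasks with 50 ml of liquid medium, about 50 seedlings per flask, and left overnight. The mock group (n = 3 biological replicates) then received the solvent DMSO. The dexamethasone group (n = 3 biological replicates) received 10 µM dexamethasone, and both treatments lasted 6 h. Both groups carry the transgene, and dexamethasone-treated seedlings without it were not analysed here, so effects of the hormone and of the fusion cannot be told apart. The probe set of PLT2 was not analysed here.

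Proteins of the bZIP family bind DNA as dimers through a basic region, and the leucine zipper next to it decides which partners pair. Most plant members recognise sites with an ACGT core. The family is divided into lettered groups with different roles: group A works in abscisic acid signalling and, through FD, in flowering, group B in stress of the endoplasmic reticulum (ER), group F in zinc supply and salt stress, group H in light-driven development, and groups C and S1 in the response to low energy.

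Within groups the arrays correlated at 0.99 across probe sets (0.9904 to 0.9939), and between groups at 0.976 to 0.981. Values are log2 probe set values, and the medians of the arrays ran from 5.43 to 5.48. The first quartile of an array lay between 3.05 and 3.24. Below, rose and fell mean an adjusted p under 0.05 for dexamethasone against mock, by limma over all 17504 probe sets. As a check of the tissue, 5 of 6 listed root markers and 1 of 6 listed leaf markers were measured, and no flower marker was. The mean log2 value of the root markers was between 8.92 and 9.13 in mock and between 8.29 and 8.46 with dexamethasone. On the scale of log2 of the summed levels it was 12.57 to 12.66 and 12.38 to 12.45. Of the 5, 3 fell, where 9.54% of all probe sets fell. They were EXPA7 (log2 change -1.23), NAXT1 (-1.01) and BGLU22 (-0.68). PYK10, with the highest values of the 5, changed by -0.05 and BGLU21 by -0.32, and neither passed. None of the 5 was near the lower end of the arrays' range. The leaf marker RCA, the Rubisco activase gene, fell by 0.32 on the log2 scale, a call that was lost without any 1 array (adjusted p 0.0701 to 0.139). In whole seedlings, fewer cells of a type and less RNA per cell cannot be told apart. The part of these markers in the bZIP results was not tested.

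Of the 26 bZIP genes 3 rose, 2 fell and 21 did not pass. FD of group A, bZIP23 of group F and bZIP29 of group I were the genes that rose, and bZIP61 and bZIP34, the pair that makes up group E, were those that fell. These 5 are 19.2% of the members, against 18.6% of all probe sets tested, a share near the background. In each direction the background was 9.04% for a rise and 9.54% for a fall. The median log2 change was -0.09 over the members and 0.02 over all probe sets. The median size of a change, with its sign removed, was 0.26 and 0.20. The groups did not overlap for 12 members, against 38.1% of all probe sets. Dexamethasone was higher in 4 of these members (19.3% of all probe sets) and lower in 8 (18.8% of all probe sets). With an intensity trend in eBayes, 10 members passed, of which 4 rose and 6 fell, with bZIP17 added to the rises and bZIP18, bZIP19, PosF21 and HYH to the falls. In that fit 24.8% of all probe sets passed, 12.1% that rose and 12.7% that fell.

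**Figure D1:**
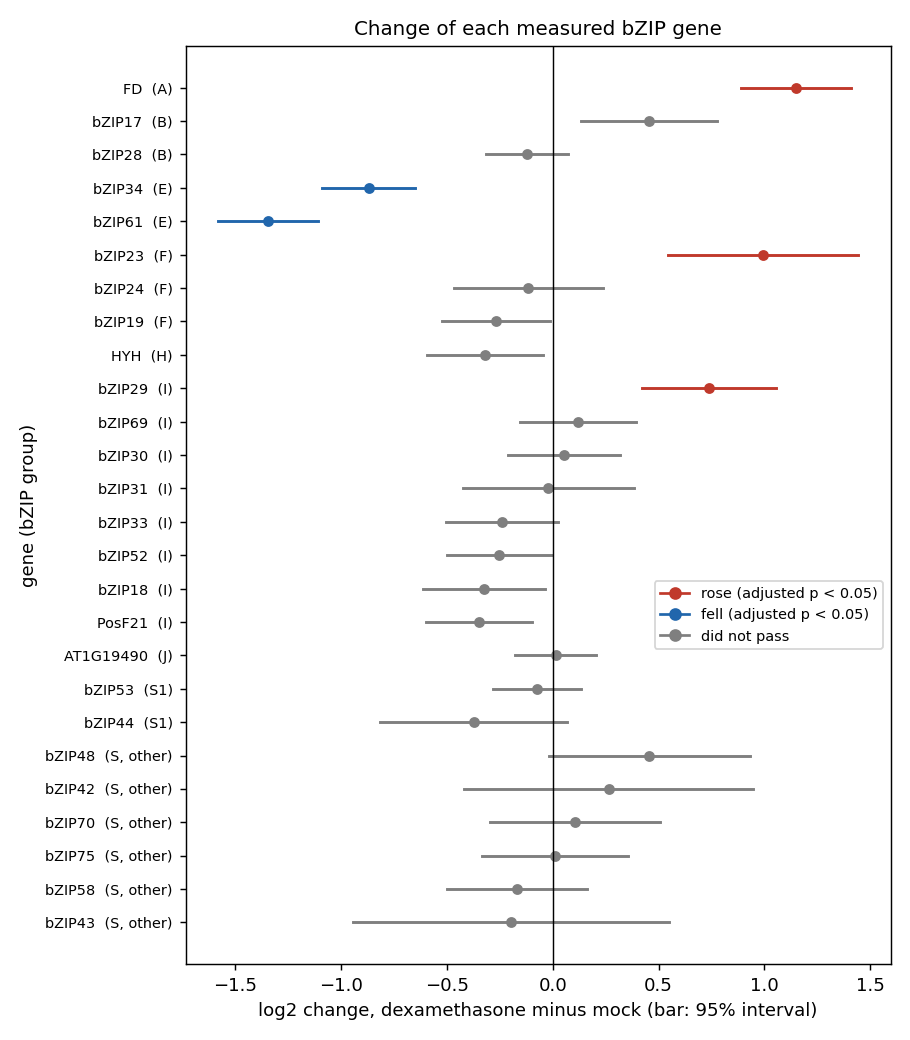
Log2 change (dexamethasone minus mock, 3 arrays each) of the 26 measured bZIP genes, with 95% intervals from limma as bars and the bZIP group in brackets. The 3 genes that rose lie at 0.74 to 1.15, the 2 genes of group E at -0.87 and -1.35, and all others between -0.37 and 0.46.

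Both genes of group E fell. The group is known from male gametophyte development, where bZIP34 is needed for normal pollen. For bZIP61 (AT3G58120) the log2 values were 8.77, 8.80 and 8.95 in mock replicates 1 to 3 and 7.44, 7.43 and 7.61 in dexamethasone replicates 1 to 3. Every dexamethasone array lay more than a log2 unit below every mock array. The gene fell 2.54-fold (log2 change -1.35, SE 0.10, adjusted p 4.64e-04), the largest change of the 26 members in either direction. For bZIP34 (AT2G42380) the mock arrays gave 8.06, 7.93 and 8.11 and the dexamethasone arrays 7.20, 7.10 and 7.18. These groups did not overlap either, and SD was 0.09 in mock and 0.05 in dexamethasone. bZIP34 fell 1.83-fold (log2 change -0.87, SE 0.09, adjusted p 0.00160). With any 1 array left out, the change was -1.40 to -1.29 for bZIP61 and -0.92 to -0.83 for bZIP34, and both stayed past the threshold. The fall of bZIP61 exceeded that of bZIP34 by 0.47, and the within-array difference of the genes did not overlap between groups. An exact two-sided permutation test of that difference gave p = 0.10, the smallest that 3 against 3 arrays allow. Hybridisation of 1 probe set with both transcripts was not tested.

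FD (AT4G35900) is the bZIP partner of the florigen FT at the shoot apex, where the complex switches on flowering genes. Its log2 values were 5.19, 5.41 and 5.08 in the mock arrays and 6.38, 6.41 and 6.34 in the dexamethasone arrays. All dexamethasone arrays were higher, and they lay close together (SD 0.04, against 0.17 in mock, n = 3 each). FD rose 2.22-fold, with a log2 change of 1.15 (SE 0.11) and an adjusted p of 0.00112. The change was 1.07 to 1.24 with any 1 array left out. It was the only member of the 26 that rose with an adjusted p under 0.01. Its paralog FDP was not analysed here. None of the 8 listed genes for FD's florigen partners and floral targets, such as FT and AP1, was analysed here.

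**Figure D2:**
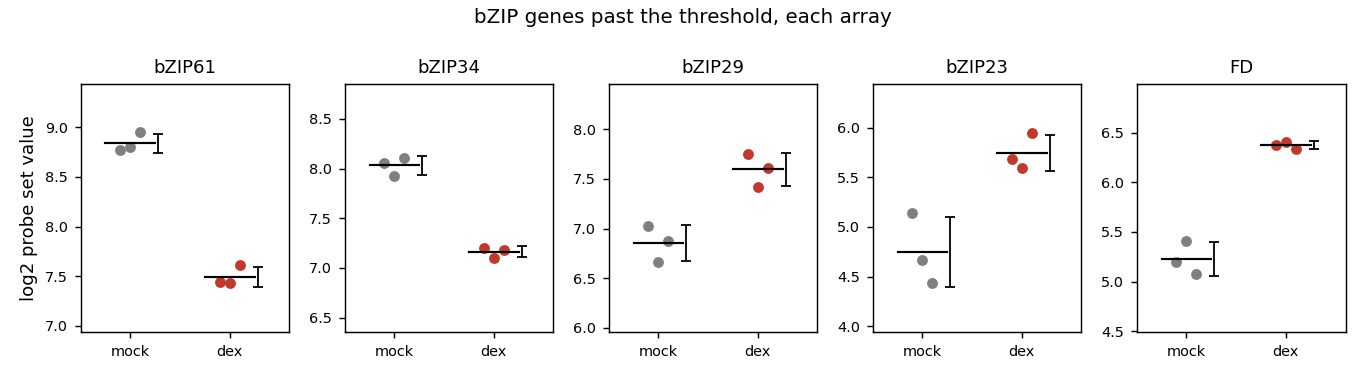
Log2 probe set values of the 5 bZIP genes past the threshold in each array (points; mock grey, dexamethasone, written dex, red), with the group mean as a line and the SD over 3 arrays as a bar; each panel has its own axis of the same length. In all 5 genes the groups are apart, and the mock arrays of bZIP23 are the most spread (SD 0.35).

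In group F, bZIP23 rose and the other 2 members, bZIP19 and bZIP24, did not pass. bZIP19 and bZIP23 are the regulators of the zinc deficiency response, in which they overlap in function, and bZIP24 is known from salt stress. bZIP23 (AT2G16770) gave 5.14, 4.67 and 4.44 in the mock arrays and 5.69, 5.60 and 5.95 in the dexamethasone arrays. The groups did not overlap, although mock replicate 1 stood above the other mock arrays (SD 0.35). bZIP23 rose 1.99-fold (log2 change 1.00, SE 0.19, adjusted p 0.0137), or by 0.84 to 1.19 with any 1 array left out, with adjusted p from 0.00911 to 0.0483. bZIP19 (AT4G35040) did not pass. Its mock arrays were tight at 9.20, 9.15 and 9.19, and its dexamethasone arrays were 8.81, 8.83 and 9.10, all lower (log2 change -0.27, 95% interval -0.52 to -0.01, adjusted p 0.136). bZIP24 (AT3G51960) gave 5.40, 5.36 and 5.39 in mock and 4.98, 5.27 and 5.56 in dexamethasone, so its groups overlapped (log2 change -0.11, 95% interval -0.47 to 0.24). The dexamethasone arrays of bZIP24 were spread more widely than its mock arrays, with SD 0.29 against 0.02.

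The changes of bZIP23 and bZIP19 differed by 1.26 on the log2 scale. In each array the value of bZIP19 exceeded that of bZIP23, by 4.07 to 4.75 in mock and by 3.12 to 3.23 in dexamethasone, and these ranges of 2 probe sets are comparable only between groups. They did not overlap (exact two-sided permutation p = 0.10). The difference between bZIP23 and bZIP24 was 1.11, also without overlap and with the same p, while that between bZIP19 and bZIP24 was 0.15, with overlap (exact p = 0.40). In all, 6 pairs were compared, every pair within a group with 2 or 3 measured members, and the lowest p adjusted over them was 0.15. With 3 arrays a group this exact test cannot give a p under 0.10, so it could pass no pair. How often such differences do not overlap for other pairs of probe sets was not tested. Of 11 listed targets of group F, mostly zinc transport and nicotianamine synthase genes, only the zinc transporter gene ZIP9 was measured. Its log2 values were 3.83, 3.88 and 3.56 in mock and 3.33, 3.28 and 3.09 in dexamethasone, and it fell by 0.52 on the log2 scale (adjusted p 0.0273). The adjusted p reached 0.0933 with 1 array left out, and the call was kept in 2 of these 6 refits. One of the 6 values lay under its array's first quartile, so the size of this change is approximate.

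Group I was the largest group measured, with 8 of 9 listed loci. Of the 8, 1 rose, where 9.04% of all probe sets rose. bZIP29 (AT4G38900), which is known to affect cell number in leaves and the root meristem and to act on cell wall genes, gave 7.03, 6.66 and 6.88 in mock and 7.75, 7.42 and 7.61 in dexamethasone. All dexamethasone arrays were higher than all mock arrays. bZIP29 rose 1.67-fold (log2 change 0.74, SE 0.13, adjusted p 0.0113), or by 0.64 to 0.83 with any 1 array left out, with adjusted p from 0.0192 to 0.0371. The median log2 change of the 8 was -0.13, against 0.02 over all probe sets. A change below 0 was seen in 5 of the 8 and in 8199 of the 17504 probe sets.

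Among the other group I genes none passed. bZIP30 (AT2G21230), a relative of bZIP29 that is known from control of reproductive growth, had a log2 change of 0.05 (95% interval -0.21 to 0.32), and bZIP69 (AT1G06070) had 0.12 (-0.16 to 0.39). Neither interval reaches the change of bZIP29. The differences between bZIP29 and these genes were not tested. PosF21 (AT2G31370) had 6.58, 6.42 and 6.60 in mock and 6.14, 6.33 and 6.08 in dexamethasone, with no overlap, and a log2 change of -0.35 with an adjusted p of 0.0615. bZIP18 (AT2G40620), a gene known from pollen, had 7.55, 7.40 and 7.53 in mock and 7.25, 7.31 and 6.94 in dexamethasone, also without overlap (log2 change -0.32, adjusted p 0.116). bZIP52 (AT1G06850) had 6.06 to 6.28 in mock and 5.80 to 5.99 in dexamethasone (log2 change -0.25, adjusted p 0.147). PosF21, bZIP18 and bZIP52 thus had every dexamethasone array below every mock array and unadjusted p of 0.0128, 0.0330 and 0.0470, but none passed after adjustment. bZIP33 (AT2G12900) lay under the first quartile in all 6 arrays and bZIP31 (AT2G13150) in 3 of them, with log2 changes of -0.24 and -0.02. VIP1, the remaining listed member of group I, was not analysed here, nor were the 3 listed genes for VIP1 targets.

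**Figure D3:**
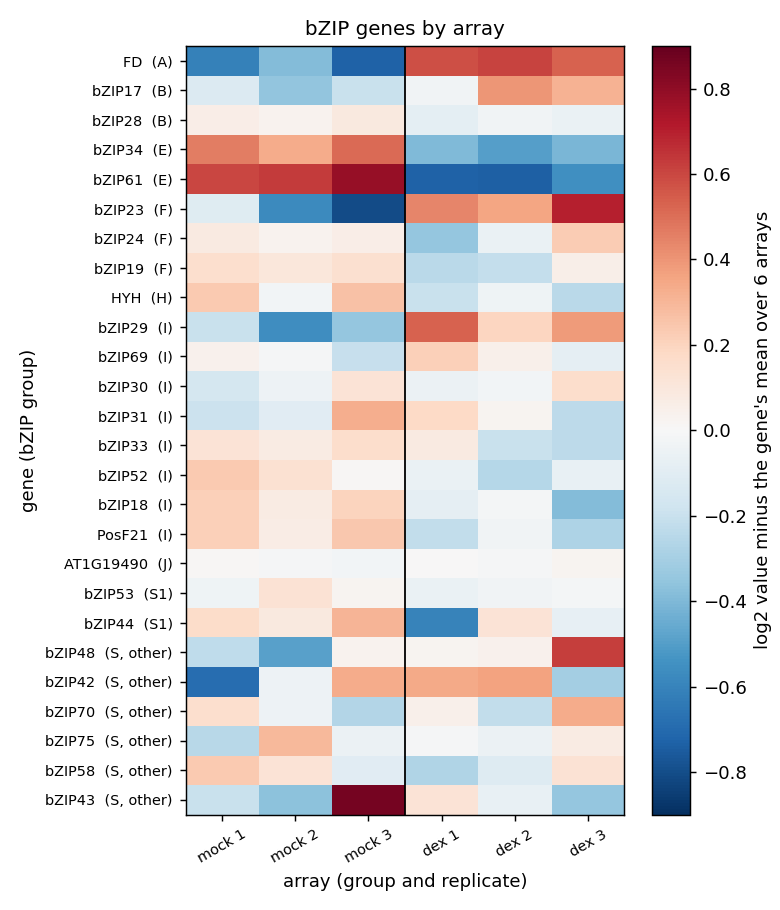
Log2 value of each of the 26 bZIP genes in each array minus that gene's mean over the 6 arrays (colour), with mock arrays on the left, dexamethasone arrays (dex) on the right and the bZIP group in brackets. FD, bZIP23 and bZIP29 turn from blue to red, bZIP34 and bZIP61 from red to blue, and bZIP43 shows 1 high mock array, replicate 3.

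Group B encodes membrane-anchored factors that are held in the ER and released by the proteases S1P and S2P under ER stress. Of its 3 listed genes, bZIP17 and bZIP28 were measured and neither passed. bZIP17 (AT2G40950) gave 6.36, 6.13 and 6.28 in mock and 6.46, 6.88 and 6.80 in dexamethasone. All dexamethasone arrays were higher, replicate 1 by a small margin (log2 change 0.45, 95% interval 0.13 to 0.77, adjusted p 0.0593). Without dexamethasone replicate 1 the change was 0.58 with an adjusted p of 0.0279. bZIP28 (AT3G10800) gave 6.31, 6.28 and 6.34 in mock and 6.16, 6.22 and 6.19 in dexamethasone, a difference of -0.12 without overlap (95% interval -0.31 to 0.07, adjusted p 0.358). The changes of these 2 genes differed by 0.58, and the within-array differences did not overlap between groups (exact two-sided permutation p = 0.10, adjusted over the 6 pairs 0.15).

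Several genes that act downstream of the ER stress factors, and another bZIP gene of that pathway, fell after dexamethasone. BZIP60 (AT1G42990) of group K, whose messenger RNA is spliced by IRE1 in ER stress, gave 8.58, 8.44 and 8.69 in mock and 8.13, 8.11 and 7.87 in dexamethasone. It fell 1.45-fold (log2 change -0.53, SE 0.12, adjusted p 0.0211), without overlap. The call was lost without mock replicate 1, mock replicate 3 or dexamethasone replicate 3, with adjusted p up to 0.0713. Of 20 listed ER stress genes 6 were measured, of which 3 fell and none rose. Over all probe sets 9.54% fell and 9.04% rose. All 6 had a change below 0, as had 8199 of the 17504 probe sets. Their median was -0.31, against 0.02 over all probe sets. The list was chosen with earlier results of these data known, so these contrasts are descriptive and not an independent test. The background also holds dim probe sets, and without the dimmest ones 2089 of 12253 probe sets fell. BIP1, an Hsp70 chaperone of the ER, gave 8.40, 8.64 and 8.54 in mock and 8.02, 7.85 and 7.77 in dexamethasone, and fell 1.56-fold (log2 change -0.64, SE 0.11, adjusted p 0.00927). For CRT1b, a calreticulin gene, the mock arrays were 9.68, 9.64 and 9.71 and the dexamethasone arrays 9.21, 9.11 and 9.17. CRT1b fell 1.43-fold (log2 change -0.51, SE 0.08, adjusted p 0.00811), and the groups lay far apart relative to their SD of 0.03 and 0.05. ERDJ3B, a DnaJ-type helper of BiP, gave 9.40, 9.35 and 9.52 against 9.04, 8.93 and 8.86. It fell 1.40-fold (adjusted p 0.0161), a call that was lost without mock replicate 1 or mock replicate 3, with adjusted p up to 0.0539. The calls of BIP1 and CRT1b held with any 1 array left out. The other 3, among them the gene of the protease S1P itself, had log2 changes of -0.14 to -0.06 and adjusted p of 0.362 to 0.78.

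**Figure D4:**
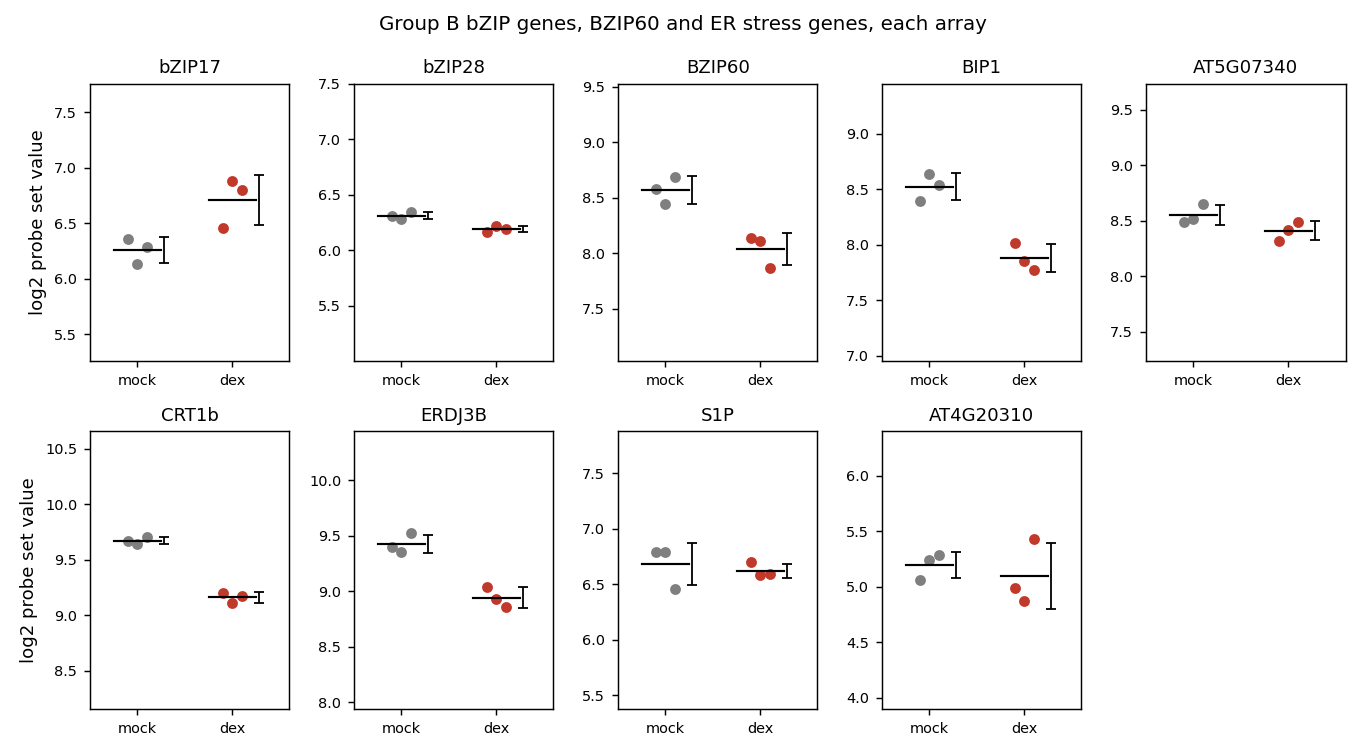
Log2 probe set values of bZIP17, bZIP28, BZIP60 and the 6 measured ER stress genes in each array (points; mock grey, dexamethasone, written dex, red), with the group mean as a line and the SD over 3 arrays as a bar; each panel has its own axis of the same length. BZIP60, BIP1, CRT1b and ERDJ3B have all dexamethasone arrays below all mock arrays, with log2 changes of -0.48 to -0.64. bZIP28, which did not pass, also has all dexamethasone arrays lower (log2 change -0.12). bZIP17 is higher in dexamethasone and did not pass.

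HYH (AT3G17609) of group H, the homolog of the light-signalling factor HY5, gave 7.68, 7.42 and 7.71 in mock and 7.24, 7.40 and 7.20 in dexamethasone. The groups did not overlap, with dexamethasone replicate 2 close to mock replicate 2. HYH did not pass (log2 change -0.32, 95% interval -0.59 to -0.05, adjusted p 0.102). The 16 listed light signalling genes were not analysed here. AT1G19490, placed in group J, had the narrowest 95% interval of all 26 members, with 6.43 to 6.46 in mock and 6.44 to 6.48 in dexamethasone (log2 change 0.01, 95% interval -0.18 to 0.20).

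In group S1, which pairs with group C factors in the response to low energy, 2 of 5 listed genes were measured and neither passed. bZIP53 (AT3G62420), also known from seed maturation, was 9.56 to 9.72 in mock and 9.53 to 9.57 in dexamethasone (log2 change -0.07, 95% interval -0.28 to 0.13). bZIP44 (AT1G75390) gave 6.81, 6.73 and 6.95 in mock and 6.04, 6.76 and 6.57 in dexamethasone. Dexamethasone replicate 1 was the lowest and replicate 2 lay within the mock range (log2 change -0.37, 95% interval -0.82 to 0.07, adjusted p 0.22). The difference between the changes of these genes was 0.30, with overlap (exact p = 0.20). Of 15 listed low-energy partners and targets of groups C and S1, only AT5G38710 was measured. It fell by 0.45 on the log2 scale (adjusted p 0.0406), but the call was lost with any 1 array left out (adjusted p 0.0526 to 0.129), and 5 of its 6 values lay under the first quartile.

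The other group S genes gave low values on these arrays. Of 12 listed, 6 were measured and none passed. bZIP43 (AT5G38800), bZIP48 (AT2G04038) and bZIP75 (AT5G08141) lay under the first quartile in all 6 arrays, and bZIP42 (AT3G30530) and bZIP70 (AT5G60830) in 4 of 6. bZIP48 gave 2.00, 1.74 and 2.26 in mock and 2.26, 2.26 and 2.85 in dexamethasone, the largest change of the 6 (log2 change 0.46, 95% interval -0.02 to 0.93, adjusted p 0.169). bZIP43 had 1 mock array at 2.74, while its other 5 arrays lay between 1.51 and 2.00, and its interval was the widest of all members (-0.94 to 0.55). bZIP58 (AT1G13600) was above the first quartile in every array, at 4.21 to 4.54 in mock and 4.04 to 4.44 in dexamethasone (log2 change -0.17, 95% interval -0.50 to 0.16). The changes of bZIP42, bZIP70 and bZIP75 were 0.26, 0.10 and 0.01. At these low values a difference could have gone undetected.

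Outside the 26 members, a list of 14 further bZIP loci held 5 with a probe set of their own, of which EEL rose and BZIP60 fell. These 14 loci were not counted in the bZIP groups above, whose counts cover the 57 listed loci alone. EEL (AT2G41070), also named DPBF4, is a seed factor that binds abscisic acid response elements, and its log2 values were 5.05, 4.83 and 4.54 in mock and 6.36, 6.26 and 6.50 in dexamethasone. Every dexamethasone array was more than a log2 unit above every mock array. EEL rose 2.96-fold (log2 change 1.57, SE 0.15, adjusted p 0.00106), or by 1.43 to 1.69 with any 1 array left out. The other 3 did not pass, with log2 changes of -0.15 to -0.03. Over all 31 bZIP loci measured, 4 rose, 3 fell and 24 did not pass, where 9.04% of all probe sets rose and 9.54% fell.

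Group D factors, the TGA factors, act in salicylate defence and flower development, in part through glutaredoxins. No listed group D gene was analysed here, and 3 of 17 listed partners and targets were measured. These were the glutaredoxin genes GRX480, ROXY1 and ROXY2, and none passed. GRX480, which had the smallest p of the 3, gave 4.03, 4.77 and 4.53 in mock and 4.21, 3.90 and 4.34 in dexamethasone, with overlap (log2 change -0.30, adjusted p 0.376). The other 2 had log2 changes of -0.07 and -0.02. Over the 8 lists of related genes, 16 of 104 loci were measured, of which 1 rose and 6 fell, against 9.04% and 9.54% of all probe sets. Their median change was -0.15, against 0.02 over all probe sets, and the lists were chosen with earlier results of these data known.

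Among the 21 bZIP members that did not pass, every 95% interval stayed within a log2 change of 1 in either direction. The interval held 0 for 15 of them and lay on 1 side of 0 for 6. Log2 changes ran from -0.37 to 0.46, while the smallest change among members that passed was 0.74. The threshold itself favours small changes among the 21, so this gap is not a separate result. With the eBayes trend bZIP19 passed with a change of -0.27, so the gap also depends on the fit. In 7 of the 21 the groups did not overlap, 6 with dexamethasone lower (bZIP18, bZIP19, bZIP28, bZIP52, PosF21 and HYH) and 1 with dexamethasone higher (bZIP17). Over all probe sets, passing or not, 18.8% were lower and 19.3% higher without overlap, and these 21 are the members left after those that passed were set apart.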

How the data were processed

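The series matrix was deposited with log2 values, 1 for each probe set on each array. The submitters' processing notes list RMA and limma 3.24.15, with no role for either. For the build and the level of probe summarisation, the sources used here give nothing. Per the labels, the 3 samples of a group are biological replicates. Whether each came from its own flask is not given by the labels.

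The platform's probe table names a gene for 17504 of 38408 probe sets and 1 gene alone for 16746, of which 16601 were matched to RefSeq (TAIR10.1) through the gene ID. Each locus was represented by its single-gene probe set with the highest mean. The members, their bZIP groups and the lists of related genes were chosen with earlier results of these data known. Any member could be named; from each list, the genes past the threshold, at most 3 by size of change, or else the one with the smallest p. The named genes S1P, ROXY1 and ROXY2, and those labelled in the plot of ER stress genes, fall outside that rule and were added after their values were seen.

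Dexamethasone was compared with mock using limma 3.58.1 in R 4.3.3 (lmFit, eBayes with default settings, two-sided) on the log2 values as deposited. The Benjamini-Hochberg adjustment covered all 17504 probe sets. The code was tested on simulated data. SE is the moderated standard error, SD is over 3 arrays, and a fold is 2 raised to the log2 change. Pairs of genes were compared with the exact permutation test of scipy 1.17.1, a comparison added after the data were seen, as was a fit of the whole table with its unnamed probe sets. The other alternatives were a replicate block, quantile normalization, median centring, a filter on the dimmest 30%, eBayes with trend or robust, array weights, 1 probe set per gene, other thresholds and leaving out each array. The labels do not state that a replicate number marks a shared batch, so the arrays were not paired in the main fit. Deviations of same-numbered arrays correlated at -0.00987, -0.0163 and 0.0305. Precision is limited by having 3 arrays in a group.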

Additional observations from a re-analysis of the deposited data

How the results depend on the processing

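The calls of FD, bZIP23, bZIP29, bZIP34 and bZIP61 held under the replicate block, quantile normalization, median centring, the filter on the dimmest 30%, eBayes with trend or robust, array weights, 1 probe set per gene and each left-out array. The block gave 5 members, 5 related list genes and 2417 probe sets, and of the calls named it ended those of BZIP60, AT5G38710 and the marker RCA. The count of members was 10 of 26 with the eBayes trend (4348 of 17504 probe sets) and 6 of 26 with median centring (3307 of 17504). Without the dimmest probe sets it was 7 of the 19 members kept, where 3996 of 12253 probe sets passed. An adjusted p of 0.01 left 3 members (not bZIP23 or bZIP29), 3 list genes and 1205 probe sets, and an added log2 change of at least 1 left 2 members, 1 list gene and 630 probe sets. Leaving out 1 array gave 5 to 6 members, 3 to 6 list genes (7 with all arrays; 3 without mock replicate 1, 4 without mock replicate 3 or dexamethasone replicate 3) and 1724 to 2477 probe sets (3252 with all arrays; 1724, 2017 and 2119 without mock replicates 1, 2 and 3). These refits have fewer arrays. bZIP17 passed with median centring (0.0348), without the dimmest probe sets (0.0337), with the trend (0.0200) and without dexamethasone replicate 1 (0.0279), and PosF21 without the dimmest probe sets (0.0324) and with the trend (0.0381). ZIP9 was not past the threshold with quantile normalization or the trend, nor AT5G38710 with median centring or the trend. The marker RCA was not past it with median centring (adjusted p 0.0895) or eBayes robust (0.0504). The marker BGLU21 passed without the dimmest probe sets (0.0357) and with the trend (0.00524). The fit of all probe sets gave 5 members. No called change turned its sign. Among members that did not pass, bZIP75 was -0.0752 with quantile normalization, and bZIP31 was 0.0192 with median centring and 0.0457 with array weights, signs opposite to those with the values as deposited. With 1 array left out the sign depended on the array for bZIP24 (-0.2594 to 0.03), bZIP30 (-0.0116 to 0.1291), bZIP31 (-0.1238 to 0.1378), bZIP42 (-0.0124 to 0.4983), bZIP43 (-0.4288 to 0.185), bZIP70 (-0.0365 to 0.2417) and bZIP75 (-0.1147 to 0.1575). Apart from fewer arrays or probe sets, the cause was not tested. No member had another single-gene probe set, so that alternative gave no value. Signal over background was not analysed here, which limits the dim members of groups I and S.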
